A study of Mus musculus with 7 samples.

Results

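The genes described here code for splicing factors and heterogeneous nuclear ribonucleoproteins (hnRNPs), the proteins that bind newly made RNA and cut out its introns. They were chosen by name: every probe set that named 1 gene whose symbol begins with Srsf, Sf3a, Sf3b, Snrp, Hnrnp, U2af or Prpf was taken. The rule found 71 probe sets of 52 genes among 12422 probe sets on the array. 36 genes had 1 probe set, 14 had 2, 1 had 3 and 1 had 4. By role they comprised 16 probe sets of SR proteins, 22 of hnRNPs, 3 of the factors that find the 3′ end of an intron, 1 of U1, 13 of U2 and 5 of the Sm ring of small nuclear ribonucleoproteins (snRNPs), 10 of Prpf proteins and 1 of a pseudogene, Snrp1c-ps2. 7 of the 71 probe sets stayed at or under the floor described below on every array. They were 161795_r_at of Prpf39, 101022_at and 160141_r_at of Srsf1, 161335_r_at of Snrpb, 95911_at of Hnrnpab, 161372_f_at of Hnrnpdl and 93761_at of Hnrnpu.

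The study measured gene expression in the mouse uterus after dihydrotestosterone (DHT), an androgen that aromatase cannot turn into an estrogen. C57BL/6 females of 10 to 11 weeks were ovariectomized and 7 days later were killed 1, 3, 6, 12, 18 or 24 h after a subcutaneous dose of 0.1 mg DHT a mouse; the control mice, also ovariectomized, were killed 24 h after vehicle. Each group was 1 RNA pool of whole uteri on 1 Affymetrix U74Av2 array, so there are 7 arrays and no replicate of any group. Vehicle was given only at 24 h before death, so at 1 to 18 h the effects of DHT and of the injection cannot be told apart, and all ratios share that 1 vehicle array. The times follow the array titles, since the design text names 0.5 h and no 18 h. In pooled whole tissue, fewer cells of a type and less RNA per cell cannot be told apart.

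Splicing is carried out by the spliceosome. The U1 snRNP first pairs with the 5′ end of an intron, the U2af pair marks its 3′ end, and the U2 snRNP, with its Sf3a and Sf3b subunits, settles on the branch point; the tri-snRNP with several Prpf proteins then joins and the intron is cut out. SR proteins mostly help exons to be recognised, while hnRNPs coat the RNA and often repress splicing sites nearby, so the balance between these families sets which exons are kept.

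Promoters are shown for 4 genes, of which Hnrnph3 had a time course different from the others. Sf3b6, Hnrnpd and Srsf3 were at least 1.5-fold above vehicle at 2 or more neighbouring times, and Hnrnph3 was lower on the late arrays than on the early ones. The windows are the 250 bases before the RefSeq start of each gene (GRCm38.p6), and 46 of the 52 genes had such a window. Capitals mark an ETS motif (CCGGAAG or its reverse complement CTTCCGG), an E-box (CACGTG, the same on both strands) or a CCAAT box (CCAAT or its reverse complement ATTGG). The Sf3b6 window lies at chr12:4817358-4817607 on the plus strand, that of Hnrnpd at chr5:99978939-99979188 on the minus strand, that of Srsf3 at chr17:29032410-29032659 on the plus strand and that of Hnrnph3 at chr10:63023850-63024099 on the minus strand.
Sf3b6: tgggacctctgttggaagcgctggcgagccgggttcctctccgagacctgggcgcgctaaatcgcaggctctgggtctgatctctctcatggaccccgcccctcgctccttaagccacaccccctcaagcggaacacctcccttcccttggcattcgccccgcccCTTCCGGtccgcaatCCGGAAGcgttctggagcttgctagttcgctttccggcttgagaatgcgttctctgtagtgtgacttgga
Hnrnpd: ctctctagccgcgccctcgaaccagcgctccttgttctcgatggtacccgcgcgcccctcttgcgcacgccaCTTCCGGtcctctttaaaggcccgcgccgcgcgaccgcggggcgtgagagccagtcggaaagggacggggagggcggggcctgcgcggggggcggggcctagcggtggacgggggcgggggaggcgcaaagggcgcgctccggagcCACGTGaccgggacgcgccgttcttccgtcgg
Srsf3: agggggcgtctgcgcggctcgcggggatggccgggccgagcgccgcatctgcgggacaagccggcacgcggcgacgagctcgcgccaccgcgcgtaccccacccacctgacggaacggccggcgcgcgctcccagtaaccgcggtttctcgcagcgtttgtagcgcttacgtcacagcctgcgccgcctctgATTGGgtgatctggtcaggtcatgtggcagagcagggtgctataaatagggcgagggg
Hnrnph3: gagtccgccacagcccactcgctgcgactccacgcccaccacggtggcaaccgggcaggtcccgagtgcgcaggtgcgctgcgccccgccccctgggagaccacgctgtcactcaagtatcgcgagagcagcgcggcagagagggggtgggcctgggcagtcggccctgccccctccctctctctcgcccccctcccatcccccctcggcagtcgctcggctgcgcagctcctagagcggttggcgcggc
Sf3b6 holds 2 ETS motifs, 1 in each orientation, Hnrnpd 1 ETS motif and 1 E-box, Srsf3 1 CCAAT box, and Hnrnph3 none of the 3. Other windows paired motif and time course differently. That of Srsf1, above vehicle at all 6 times by 2 probe sets, held none of the 3. Those of Srsf5 and Hnrnpa1, both under vehicle at all 6 times, held 2 ETS motifs and 4 CCAAT boxes. A link between motif and time course was not tested. Over all genes of the group, the ETS motif was found in 15 of 46 (32.6%), against 7.83% of 27025 mouse genes. The GC box (GGGCGG or its reverse complement CCGCCC) was found in 31 (67.4%) against 35.4%, the CCAAT box in 22 (47.8%) against 37.5%, and the E-box in 2 (4.35%) against 6.86%. TATAAA or its reverse complement was present in 4 (8.70%) against 14.3%, and the cyclic AMP element TGACGTCA in 1 (2.17%) against 1.77%. The full androgen response element, AGAACA followed after any 3 bases by TGTTC, was in none of the 46 windows, against 0.0333% of all genes. The windows of the group were richer in G and C, with a median of 60% over 58 windows against 52.4% over 32851, and the GC box and the ETS motif are themselves rich in these bases. All motifs were searched on both strands, matches of different motifs may share end bases, and only ETS, E-box and CCAAT matches are in capitals. A match describes the letters only.

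The values are MAS5 signals on a linear scale. Any signal below 145.9, the 40th percentile over the whole table, was set to that value, called the floor. A probe set was counted as higher or lower at a time when its signal differed at least 1.5-fold from the vehicle array and the larger of the 2 signals was at least 291.8, which is 2 floors. Signals of different probe sets are not comparable with each other. Array medians ranged from 227.4 to 237.0, and between 39.4% and 40.8% of an array's values were under the floor. Probe sets with names ending in _s_at, _f_at or _r_at can match related transcripts or were made under relaxed rules, which bears on families as alike as these.

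Signals of splicing factor genes at least 1.5-fold above vehicle were most frequent at 6 and 12 h. Of the 71 probe sets, 8 were higher at 6 h, when 3.78% of all 12422 probe sets were, and 0 were lower, when 3.65% were. At 12 h, 10 were higher (all probe sets 4.93%) and 3 lower (4.19%). At 18 h the counts were 6 higher (3.17%) and 4 lower (3.07%), and at 24 h 2 higher (2.79%) and 1 lower (2.99%). The first hours had fewer, with 2 higher (1.51%) and 1 lower (1.51%) at 1 h and 3 higher (2.62%) and 1 lower (2.52%) at 3 h. A single time rests on 1 array against 1 array and was not tested.

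9 of the 71 probe sets (12.7%) were at least 1.5-fold higher at 2 neighbouring times, against 4.26% of all probe sets. They belonged to Srsf1, Srsf3, Srsf4, Hnrnpd, Hnrnpll, Hnrnpr, Sf3b3, Sf3b6 and U2af1, so SR proteins, hnRNPs, U2 subunits and the 3′ splice site factor were all among them. 1 probe set (1.41%), 93118_at of Hnrnpa2b1, was lower at 2 neighbouring times, against 3.64% of all. Such calls need a signal of at least 2 floors. In mean signal 55 of 71 members but only 5629 of 12422 probe sets reached it. The shares over all probe sets are therefore not a matched base for the 1.5-fold counts. Over all 71 the median log2 ratio to vehicle was 0.01, 0.03, 0.16, 0.18, 0.13 and 0.08 at 1, 3, 6, 12, 18 and 24 h, while that of all 12422 was 0 at every time. Over the 55 members with a mean signal of at least 2 floors it was 0.05, 0.07, 0.23, 0.25, 0.16 and 0.13 in the same order, and over the 5629 such probe sets of the array it lay between -0.02 and 0.02. Of these 55, 32 (58.2%), 38 (69.1%), 40 (72.7%), 39 (70.9%), 44 (80.0%) and 37 (67.3%) were above vehicle at 1, 3, 6, 12, 18 and 24 h, against 47.6% to 52.2% of the 5629. In the same order, 2, 2, 7, 10, 5 and 2 of the 55 were at least 1.5-fold higher. Of the 5629, 137, 268, 416, 514, 332 and 278 were. At least 1.5-fold lower were 1, 1, 0, 3, 4 and 1 of the 55. Of the 5629, 119, 216, 333, 408, 282 and 261 were. With the floor at the 60th percentile of all values the median over the 71 was 0.05 at 6 h and 0.01 at 12 h, and with the floor at the 20th percentile 0.22 and 0.25. At a threshold of 2-fold fewer members were called, and their shares were small counts of 71. In order of time from 1 to 24 h, 0 (all probe sets 0.37%), 1 (0.797%), 2 (0.845%), 2 (1.18%), 2 (0.918%) and 0 (0.636%) were at least 2-fold higher. In the same order 0 (0.394%), 0 (0.564%), 0 (0.813%), 1 (0.942%), 0 (0.716%) and 0 (0.668%) were at least 2-fold lower.

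**Figure D1:**
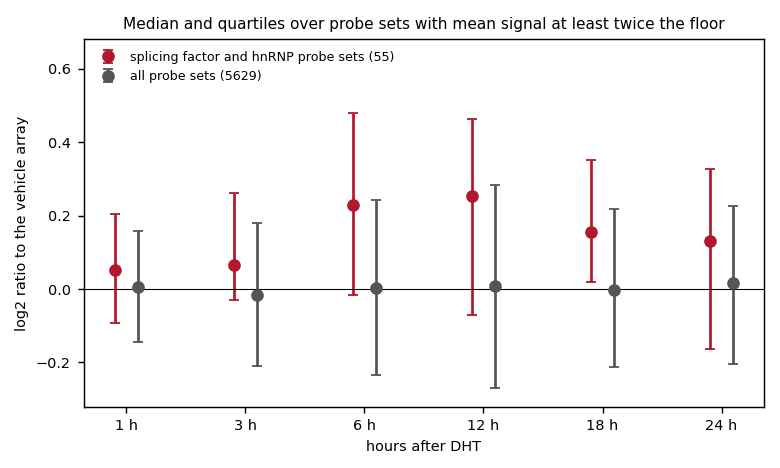
Median log2 ratio of each DHT array to the vehicle array (y axis) by hours after DHT (x axis), with bars from the lower to the upper quartile over probe sets, for 55 splicing factor and hnRNP probe sets and for all 5629 probe sets with a mean signal of at least 2 floors. The median of the splicing genes is 0.23 at 6 h and 0.25 at 12 h, and that of all probe sets stays between -0.02 and 0.02.

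Of the 64 member probe sets with a mean above the floor, 20 (31.3%) had their highest signal at 12 h and 12 (18.8%) at 6 h, against 15.3% and 13.3% of all 8421 such probe sets. The vehicle array was the highest for 6 (9.38%), against 16.8% of all. The 1, 3, 18 and 24 h arrays were the highest for 6 (9.38%), 7 (10.9%), 10 (15.6%) and 3 (4.69%), against 14.1%, 15.9%, 11.4% and 13.1% of all. 22 of the 64 were above vehicle at all 6 times (12.7% of all 8421 were), and 6 were below it at all 6 times (16.8% of all). The 6 were Srsf5, Hnrnpa1, Hnrnpu, 93118_at of Hnrnpa2b1, 162235_f_at of Prpf19 and 97548_at of Prpf39.

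**Figure D2:**
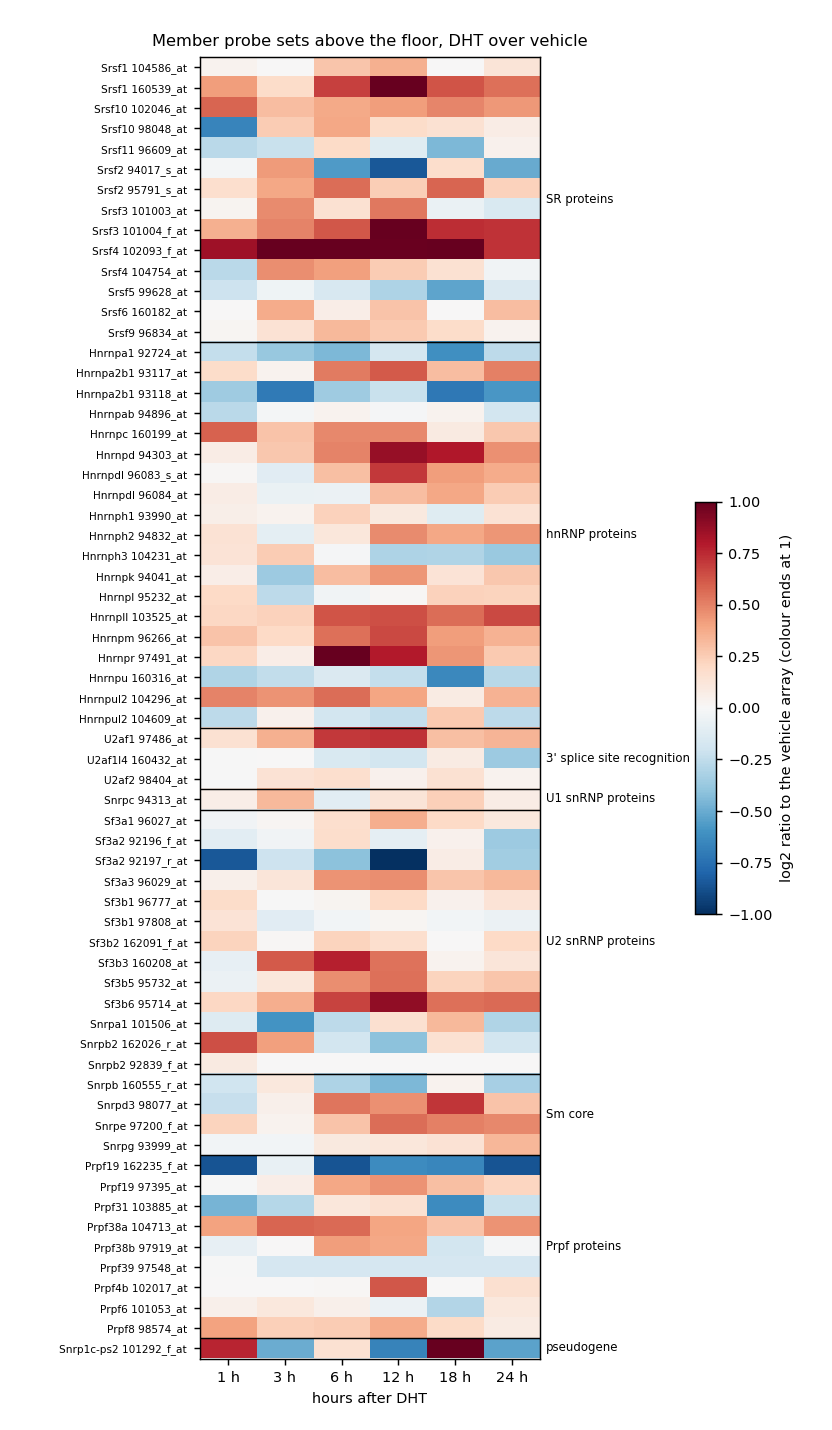
Log2 ratio to the vehicle array (colour, red higher and blue lower, ending at 1 either way) for the 64 member probe sets above the floor (rows, grouped by role) at 6 times after DHT (columns). 101004_f_at of Srsf3, 102093_f_at of Srsf4, Hnrnpll and Sf3b6 are red at all 6 times, and Srsf5, Hnrnpa1 and Hnrnpu are blue at all 6.

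For tests, the arrays of 1, 3 and 6 h were joined as early and those of 12, 18 and 24 h as late, 3 arrays each, and limma was fitted to 8421 probe sets with p adjusted by Benjamini-Hochberg over all of them. The spread is that between times within a phase, and the fit takes the spread of the single vehicle array to equal that of the rest. No member passed an adjusted p of 0.05 in any of the 3 comparisons, in which 23 (0.273%), 26 (0.309%) and 0 (0.0%) of all probe sets did for early against vehicle, late against vehicle and late against early. The lowest adjusted p of a member was 0.280, 0.207 and 0.221 in the same order. Without adjustment, 11 of 64 members had a p under 0.05 on the higher side and 1 on the lower for late against vehicle, against 5.53% and 6.19% of all. The 11 were Srsf1, Srsf3, Srsf4, Srsf10, Hnrnpd, Hnrnpdl, Hnrnph2, Hnrnpll, Hnrnpm, Sf3b6 and Snrpe, each with 1 probe set, and the lower one was Hnrnph3. The 11 became 5 without the 12 h array and 6 without the 18 h array. For early against vehicle the counts were 5 higher (Srsf3, Srsf4, Srsf10, Hnrnpul2 and Prpf38a) and 0 lower, against 2.49% and 3.84% of all, and the 5 became 2 without the 6 h or the 24 h array and 3 without the 18 h array. The count on the lower side, 0, became 1 without the 1 h or the 3 h array. The late lower count of 1 became 0 without the 18 h array and 2 without the 3 h array. Across the 64 members the median difference was 0.16 for late against vehicle and 0.11 for early against vehicle, with 44 (68.8%) and 45 (70.3%) above 0, against medians of 0.00 and 0.00 and 50.0% in both over all probe sets. The members are not replicates of one another, and both comparisons share the vehicle array.

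Late against early was the only comparison with more than 1 array on both sides. 6 member probe sets were higher in the late arrays at an unadjusted p under 0.05 (5.76% of all were) and 1 was lower (4.49% of all). The median difference over the 64 was 0.02, with 33 (51.6%) above 0, against -0.002 and 48.3% over all probe sets. The 6 became 12 without the 6 h array and 3 without the 1, the 3 or the 12 h array, and the 1 became 2 without the 6 or the 24 h array.

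**Figure D3:**
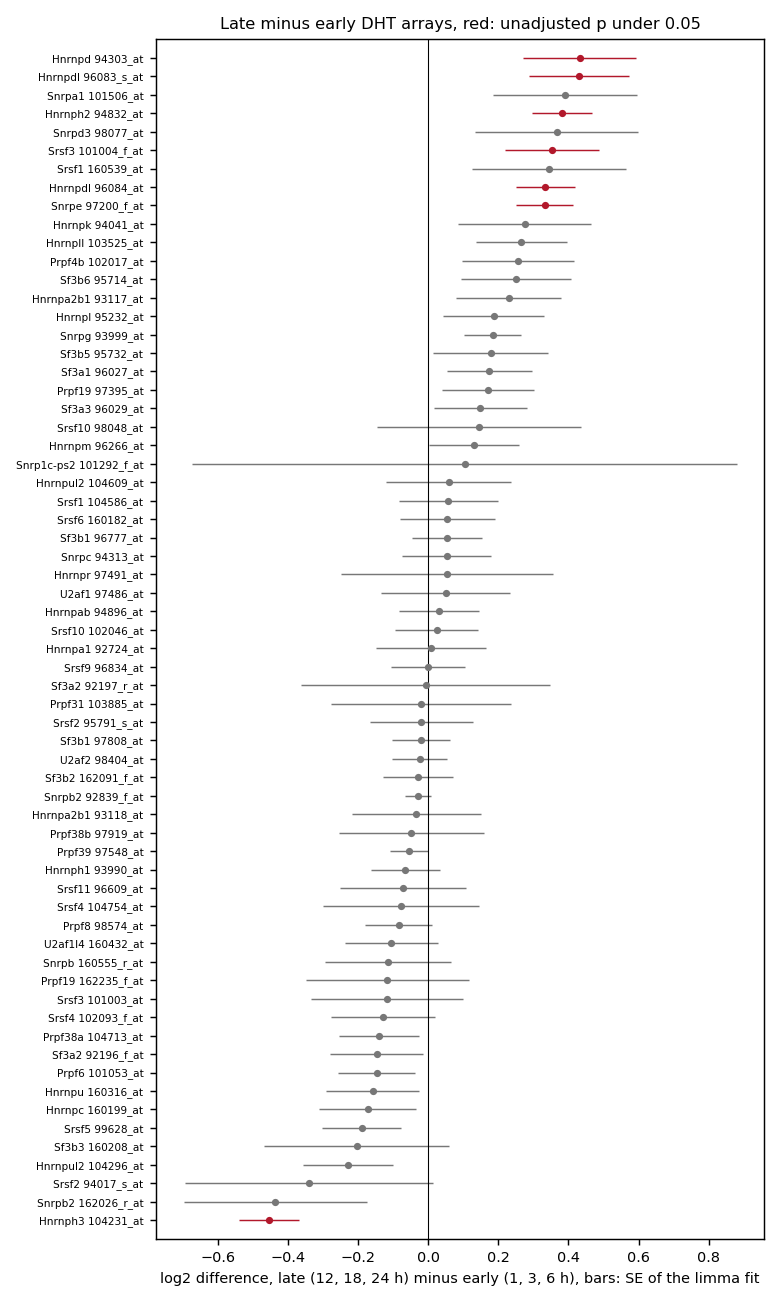
Log2 difference of the late (12, 18 and 24 h) minus the early (1, 3 and 6 h) DHT arrays (x axis, 3 arrays each) for the 64 member probe sets above the floor (rows, ordered by size), with the standard error of the limma fit as bars. The 7 probe sets with an unadjusted p under 0.05 are red, 6 to the right of 0 and Hnrnph3 alone to the left.

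Among the SR proteins, Srsf3, which shuttles between nucleus and cytoplasm and also promotes mRNA export, had an unadjusted p under 0.05 in all 3 comparisons. Its probe set 101004_f_at gave a signal of 531.6 on the vehicle array and 680.7, 751.7, 819.7, 1122.3, 888.1 and 876.8 at 1, 3, 6, 12, 18 and 24 h after DHT. Every DHT array lay above vehicle and every late array above every early one. The log2 signal averaged 9.90 ± 0.20 on the late and 9.55 ± 0.13 on the early arrays (SD, n = 3 each), a limma difference of 0.35 ± 0.13 (SE, adjusted p = 0.460), and the difference of late from vehicle was 0.85 ± 0.19 (SE, adjusted p = 0.208). A dimmer probe set of the same gene, 101003_at, gave 162.2 on the vehicle array and 165.7, 225.2, 180.7, 234.2, 154.6 and 136.1 at 1, 3, 6, 12, 18 and 24 h after DHT, and was under vehicle at 18 and 24 h.

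Srsf1, the founding member of the family and an activator of exon inclusion, was measured above the floor by 2 probe sets. 160539_at gave 247.4 on the vehicle array and 331.3, 280.9, 396.7, 545.7, 383.3 and 361.8 at 1, 3, 6, 12, 18 and 24 h after DHT, a log2 ratio of 1.14 at 12 h. The other, 104586_at, gave 475.5 on the vehicle array and 487.9, 476.9, 575.9, 608.8, 476.9 and 520.6 at 1, 3, 6, 12, 18 and 24 h after DHT, with a log2 ratio of 0.36 at 12 h. Both were highest at 12 h and above vehicle at all 6 times, with a correlation of 0.83 over the 7 arrays. Late minus vehicle was 0.77 ± 0.31 (SE, adjusted p = 0.426) for the first of them by limma.

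The Srsf4 probe set 102093_f_at was under the floor on the vehicle array, and its signals after DHT were 262.1, 318.6, 332.5, 289.0, 305.8 and 240.4 at 1, 3, 6, 12, 18 and 24 h. Measured against the floor these are log2 ratios of at least 0.85, 1.13, 1.19, 0.99, 1.07 and 0.72. The other Srsf4 probe set, 104754_at, gave 567.7 on the vehicle array and 472.1, 781.5, 754.9, 676.5, 632.3 and 554.9 at 1, 3, 6, 12, 18 and 24 h after DHT. It was above vehicle at 3 to 18 h and under it at 1 and 24 h, so the 2 probe sets gave different sizes and, at 1 and 24 h, different signs.

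Srsf10, which acts as a repressor when dephosphorylated after heat shock, had 253.1 on the vehicle array and 378.7, 314.2, 328.3, 338.0, 355.3 and 342.1 at 1, 3, 6, 12, 18 and 24 h after DHT by 102046_at. This probe set was above vehicle on all 6 arrays with its highest value at 1 h, where the second, 98048_at, had its lowest value, 179 against 283 on the vehicle array. Srsf5 ran the other way. Its signal was 3424.5 on the vehicle array and 2958.9, 3316.8, 3072.8, 2759.8, 2378.9 and 3096.5 at 1, 3, 6, 12, 18 and 24 h after DHT, under vehicle at every time and lowest at 18 h. Srsf11 by 96609_at was under vehicle at 4 of 6 times, with log2 ratios from -0.45 at 18 h to 0.19 at 6 h. Srsf9 was above vehicle on all 6 arrays, with log2 ratios between 0.02 and 0.33, and Srsf6 was above vehicle by 0.37 at 3 h and 0.31 at 24 h with almost no difference at 1 and 18 h.

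The U2 snRNP is the complex that selects the branch point. Sf3b6, also known as p14, is the subunit that contacts the branch point adenosine, and its signal was 793.1 on the vehicle array and 916.9, 1019.8, 1269.0, 1463.6, 1159.8 and 1175.6 at 1, 3, 6, 12, 18 and 24 h after DHT. All DHT arrays were above vehicle, and late minus vehicle was 0.67 ± 0.22 (SE, adjusted p = 0.355) by limma. Its partner Sf3b5, a small subunit of the same complex, gave 947.7 on the vehicle array and 909.0, 1027.4, 1306.0, 1386.2, 1108.5 and 1149.3 at 1, 3, 6, 12, 18 and 24 h after DHT. Sf3b3, a large scaffold subunit, gave 651.4 on the vehicle array and 616.4, 994.3, 1114.7, 947.5, 667.4 and 707.1 at 1, 3, 6, 12, 18 and 24 h after DHT. Sf3b5 was highest at 12 h and Sf3b3 at 6 h, and Sf3b3 was already 0.61 log2 units above vehicle at 3 h and within 0.12 of it at 18 and 24 h. Sf3b1, the subunit that clamps the branch site and is often mutated in leukaemia, had its highest signals at 1 h and 12 h. Its probe set 97808_at gave 1346.4 on the vehicle array and 1480.9, 1245.8, 1322.2, 1362.1, 1322.7 and 1294.7 at 1, 3, 6, 12, 18 and 24 h after DHT, and 96777_at stayed between 562 and 645 on the 7 arrays. Of the Sf3a trimer, which bridges U2 RNA and Sf3b, Sf3a3 gave 618.5 on the vehicle array and 640.8, 673.9, 846.0, 855.2, 750.5 and 775.9 at 1, 3, 6, 12, 18 and 24 h after DHT. Sf3a1 gave 437.9 on the vehicle array and 428.0, 444.3, 490.7, 563.9, 503.8 and 472.3 at 1, 3, 6, 12, 18 and 24 h after DHT. Sf3a3 was above vehicle at all 6 times, and Sf3a1 from 3 h on. The highest array was that of 12 h for Sf3b6, Sf3b5, Sf3a3 and Sf3a1. Sf3a2, the remaining subunit of the trimer, was under vehicle at 4 of 6 times by 92196_f_at and at 5 by 92197_r_at. The log2 ratios of these at 12 h were -0.09 and -1.20. Snrpa1, another U2 protein, was also under vehicle at 4 of 6 times, with -0.60 at 3 h and 0.33 at 18 h. Snrpb2 by 162026_r_at was under vehicle at 6, 12 and 24 h, with -0.41 at 12 h. Sf3b2 by 162091_f_at was above vehicle at all 6 times by at most 0.22.

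U2af1, the small subunit that reads the AG at the end of the intron, had 1351.5 on the vehicle array and 1500.2, 1732.6, 2202.9, 2232.2, 1665.3 and 1709.6 at 1, 3, 6, 12, 18 and 24 h after DHT. It was at least 1.5-fold above vehicle at 6 and 12 h, at log2 ratios of 0.70 and 0.72. Its large partner U2af2, which binds the pyrimidine tract, gave 5712.8 on the vehicle array and 5695.4, 6329.4, 6413.0, 5888.8, 6364.4 and 5865.0 at 1, 3, 6, 12, 18 and 24 h after DHT, all within 0.17 log2 units of vehicle. The related U2af1l4 was lowest at 24 h, at a log2 ratio of -0.36.

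In the Sm core, the ring of proteins around most spliceosomal RNAs, Snrpe had an unadjusted p under 0.05 in both comparisons of the late arrays. It was measured by 97200_f_at, a type of probe set that can match related transcripts. Snrpe gave 1894.8 on the vehicle array and 2216.9, 1940.2, 2305.8, 2790.1, 2682.1 and 2648.1 at 1, 3, 6, 12, 18 and 24 h after DHT. Each late array lay above each early one. The log2 signal averaged 11.40 ± 0.039 on the late and 11.07 ± 0.13 on the early arrays (SD, n = 3 each), a difference of 0.33 ± 0.081 (SE, adjusted p = 0.301), and late minus vehicle was 0.51 ± 0.11 (SE, adjusted p = 0.207), the lowest adjusted p of any member in that comparison. Snrpg gave 2055.7 on the vehicle array and 2012.8, 2018.2, 2195.5, 2227.2, 2274.6 and 2582.2 at 1, 3, 6, 12, 18 and 24 h after DHT, also with every late array above every early one though within 0.33 log2 units of vehicle. Snrpd3 gave 257.6 on the vehicle array and 220.1, 267.4, 374.0, 354.5, 422.8 and 314.6 at 1, 3, 6, 12, 18 and 24 h after DHT and was highest at 18 h, at a log2 ratio of 0.71. Snrpb gave 15870.2 on the vehicle array and 13827.5, 17090.2, 12792.4, 11613.7, 16290.2 and 12585.5 at 1, 3, 6, 12, 18 and 24 h after DHT by 160555_r_at. It was above vehicle at 3 and 18 h and under it at the other times, with a log2 ratio of -0.45 at 12 h. Snrpc, the U1 protein that helps read the 5′ splice site, differed from vehicle by at most 0.33, at 3 h.

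**Figure D4:**
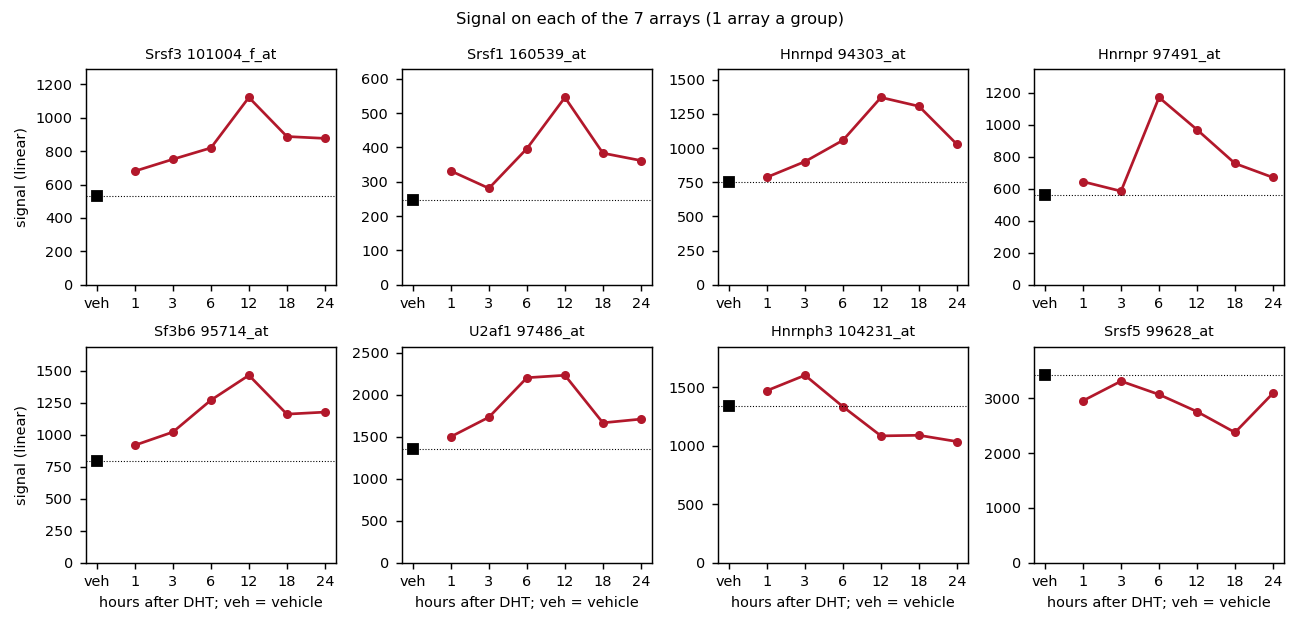
MAS5 signal (y axis, linear, from 0) of 8 member probe sets on the vehicle array (square and dotted line) and at 1, 3, 6, 12, 18 and 24 h after DHT (points), 1 array each. Srsf3, Srsf1, Hnrnpd, Sf3b6 and U2af1 peak at 12 h and Hnrnpr at 6 h, while Hnrnph3 lies below its vehicle line from 6 h, when the 2 signals are 1333.5 and 1340.8, and Srsf5 lies below it throughout.

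Among the hnRNPs, Hnrnpd, also called AUF1, which binds AU-rich elements of unstable mRNAs, gave 749.1 on the vehicle array and 787.0, 901.4, 1057.5, 1371.0, 1306.3 and 1027.5 at 1, 3, 6, 12, 18 and 24 h after DHT. All 6 DHT arrays were above vehicle, and the 12 and 18 h arrays the most. The log2 signal averaged 10.26 ± 0.22 on the late and 9.83 ± 0.21 on the early arrays (SD, n = 3 each), a difference of 0.43 ± 0.16 (SE, adjusted p = 0.457) by limma, and the groups overlapped, since the 24 h value lay under the 6 h value. Its close relative Hnrnpdl gave 2151.3 on the vehicle array and 2172.1, 1993.2, 2648.8, 3516.7, 2868.5 and 2782.3 at 1, 3, 6, 12, 18 and 24 h after DHT by 96083_s_at. By 96084_at it gave 685.3 on the vehicle array and 721.9, 653.2, 658.4, 849.1, 897.9 and 816.3 at 1, 3, 6, 12, 18 and 24 h after DHT. In both probe sets the 3 late arrays were above the 3 early ones, and late minus early was 0.43 ± 0.14 (SE, adjusted p = 0.410) for the first and 0.33 ± 0.085 (SE, adjusted p = 0.318) for the second. The 2 probe sets had the same sign against vehicle at 5 of 6 times.

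Hnrnpr, a relative of the mRNA-binding protein Syncrip, had its highest value at 6 h. Its signal was 558.5 on the vehicle array and 644.6, 585.2, 1171.6, 969.9, 758.5 and 670.8 at 1, 3, 6, 12, 18 and 24 h after DHT. Hnrnpll, known in T cells for switching exons of the phosphatase gene Ptprc, gave 782.2 on the vehicle array and 904.4, 916.4, 1208.4, 1225.7, 1150.9 and 1233.3 at 1, 3, 6, 12, 18 and 24 h after DHT, and stayed near its 6 h level on the later arrays. Hnrnpm, which binds GU-rich sequences, gave 1349.4 on the vehicle array and 1643.8, 1545.7, 1978.8, 2129.6, 1807.1 and 1715.9 at 1, 3, 6, 12, 18 and 24 h after DHT. All 3 were above vehicle on every DHT array, and late minus vehicle was 0.62 ± 0.18 (SE, adjusted p = 0.317) for Hnrnpll and 0.48 ± 0.18 (SE, adjusted p = 0.410) for Hnrnpm by limma.

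The 3 measured members of the Hnrnph group, which bind runs of G, had different courses. Hnrnph3 gave 1340.8 on the vehicle array and 1471.2, 1602.5, 1333.5, 1083.7, 1088.9 and 1035.3 at 1, 3, 6, 12, 18 and 24 h after DHT, with every late array under every early one and under vehicle. Its log2 signal averaged 10.06 ± 0.040 on the late and 10.52 ± 0.13 on the early arrays (SD, n = 3 each), a difference of -0.45 ± 0.086 (SE, adjusted p = 0.221), which was the lowest adjusted p of any member for late against early. Hnrnph2 gave 177.2 on the vehicle array and 196.3, 165.6, 191.3, 245.8, 232.1 and 241.1 at 1, 3, 6, 12, 18 and 24 h after DHT, so that every late array was above every early one, with a difference of 0.38 ± 0.086 (SE, adjusted p = 0.289). Its signals all lay under 291.8, which limits what they can show. Hnrnph1 stayed between 3425 and 4358 on the 7 arrays.

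Hnrnpa1, which represses exons and counters Srsf1 at many sites, was under vehicle on all 6 arrays by 92724_at, with 518.8 on the vehicle array and 440.2, 398.1, 379.2, 460.0, 339.1 and 433.4 at 1, 3, 6, 12, 18 and 24 h after DHT. Hnrnpu, a nuclear scaffold protein, was likewise under vehicle throughout by 160316_at, with 1001.7 on the vehicle array and 813.9, 846.9, 906.6, 850.9, 639.4 and 827.6 at 1, 3, 6, 12, 18 and 24 h after DHT. In both genes the 18 h array was the lowest. Hnrnpk, which binds C-rich RNA, had 973.6 on the vehicle array and 1021.5, 758.8, 1207.4, 1323.9, 1068.4 and 1174.0 at 1, 3, 6, 12, 18 and 24 h after DHT. Hnrnpc, which packs nascent RNA, had 183.5 on the vehicle array and 276.8, 223.3, 256.3, 256.2, 195.2 and 221.7 at 1, 3, 6, 12, 18 and 24 h after DHT. Hnrnpc was highest at 1 h and Hnrnpk at 12 h. The signals of Hnrnpc all lay under 291.8, which limits what they can show. Hnrnpul2 gave 318.7 on the vehicle array and 449.0, 435.7, 470.2, 417.9, 337.8 and 404.7 at 1, 3, 6, 12, 18 and 24 h after DHT by 104296_at, above vehicle at all 6 times and more so at 1 to 6 h, but its second probe set, 104609_at, was under vehicle at 4 of 6 times and had a correlation of -0.64 with the first over the 7 arrays. Hnrnpab, whose human counterpart binds AU-rich RNA, was furthest from vehicle at 1 h, at -0.27 in log2 ratio, and Hnrnpl, which binds CA repeats, at 3 h, at -0.26.

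The Prpf proteins, most of them parts of the tri-snRNP or of the complexes that activate it, had a median log2 ratio of 0.26 at 12 h and between -0.09 and 0.08 at the other times over 10 probe sets. Prpf38a, which joins just before activation, gave 332.4 on the vehicle array and 439.7, 498.7, 491.1, 436.6, 405.9 and 453.7 at 1, 3, 6, 12, 18 and 24 h after DHT, above vehicle at all 6 times with its highest values at 3 and 6 h. Early minus vehicle was 0.52 ± 0.16 (SE, adjusted p = 0.659) by limma. Prpf8, the large protein at the catalytic centre, was also above vehicle at all 6 times, with 1832.3 on the vehicle array and 2420.4, 2159.9, 2189.1, 2370.6, 2089.4 and 1940.8 at 1, 3, 6, 12, 18 and 24 h after DHT. Prpf19, the ubiquitin ligase of the activating complex, gave 784.2 on the vehicle array and 780.4, 820.8, 1025.0, 1069.5, 963.7 and 908.9 at 1, 3, 6, 12, 18 and 24 h after DHT by 97395_at. Its other probe set, 162235_f_at, was under the floor at 1, 6 and 24 h, with 265.2 on the vehicle array and 144.8, 251.6, 115.1, 171.1, 168.5 and 79.8 at 1, 3, 6, 12, 18 and 24 h after DHT. Prpf31, a tri-snRNP protein mutated in retinitis pigmentosa, was under vehicle at 1 h (305) and 18 h (272) and above it at 6 h (456) and 12 h (469), against 421 on the vehicle array. Prpf6, another tri-snRNP protein, was furthest from vehicle at 18 h, at a log2 ratio of -0.29. Prpf4b, a kinase, gave 124.4 on the vehicle array and 145.5, 117.2, 147.4, 224.5, 130.6 and 163.2 at 1, 3, 6, 12, 18 and 24 h after DHT, so the vehicle array and 3 of the 6 DHT arrays were under the floor.

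12 genes had exactly 2 probe sets above the floor. The signs of both against vehicle were the same at 6 of 6 times for Srsf1, at 5 for Hnrnpdl, Sf3a2 and Srsf10, at 4 for Srsf3 and Srsf4, at 3 for Sf3b1, at 2 for Srsf2 and Hnrnpul2, at 1 for Prpf19 and Snrpb2 and at 0 for Hnrnpa2b1. For Snrpb2, 92839_f_at was above the floor at 1 h only. At the other times it had no sign to compare, and the correlation of the pair over the 7 arrays was 0.70. For Hnrnpa2b1, a reader of N6-methyladenosine and a sorter of RNAs, 93117_at gave 2907.3 on the vehicle array and 3296.8, 2984.1, 4171.7, 4452.5, 3606.9 and 4120.0 at 1, 3, 6, 12, 18 and 24 h after DHT. The other, 93118_at, gave 558.0 on the vehicle array and 435.4, 341.3, 436.4, 478.1, 340.3 and 371.9 at 1, 3, 6, 12, 18 and 24 h after DHT. Here 93117_at was above and 93118_at under vehicle at all 6 times, and their correlation over 7 arrays was -0.05. For Srsf2, also known as SC35, 94017_s_at gave 9899.8 on the vehicle array and 9771.5, 13279.1, 6702.1, 5492.0, 11172.2 and 6987.1 at 1, 3, 6, 12, 18 and 24 h after DHT. The other, 95791_s_at, gave 896.7 on the vehicle array and 1007.7, 1174.5, 1322.6, 1064.3, 1344.7 and 1049.5 at 1, 3, 6, 12, 18 and 24 h after DHT. At 12 h 94017_s_at had a log2 ratio of -0.85 and 95791_s_at one of 0.25, and the correlation over 7 arrays was 0.07. For Sf3a2, 92197_r_at was -1.20 at 12 h in log2 ratio, while 92196_f_at was -0.09. For Hnrnpa2b1 and Srsf2 no direction can be given from these arrays, and which transcripts each probe set reads was not tested.

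Some of these probe sets followed control probe sets of the array that read the opposite strand. The mean log2 ratio to vehicle of the 6 such controls for actin and Gapdh was 0.02, 0.31, -0.81, -0.98, 0.41 and -0.58 at 1, 3, 6, 12, 18 and 24 h. 94017_s_at of Srsf2 had a correlation of 0.97 with that mean over the 7 arrays, 160555_r_at of Snrpb 0.93, 160432_at of U2af1l4 0.80 and 162026_r_at of Snrpb2 0.78. 104586_at of Srsf1 had -0.94 and 97919_at of Prpf38b -0.86. Of the 64 members 3.13% had a correlation above 0.8, against 5.10% of the 5629 brighter probe sets of the array. The median over the 64 was -0.34, against -0.07 over the 5629. The 64 passed a looser filter than the 5629, so the sets are not matched, and strong negative correlations were not counted. The 9 probe sets at least 1.5-fold higher at 2 neighbouring times all had negative correlations, from -0.12 for 102093_f_at of Srsf4 to -0.72 for U2af1. The hours with the most members at least 1.5-fold above vehicle, 6 and 12 h, are those at which these controls were lowest, and the part of what they track in the result was not tested. The 3′ control for 18S ribosomal RNA had a signal of 452.5 on the vehicle array and of 402.7, 1087.7, 394.3, 286.9, 1041.5 and 282.2 at 1, 3, 6, 12, 18 and 24 h. It was high at 3 and 18 h, the hours at which the opposite-strand controls were highest, and its part in the result was not tested either. The RNA quality ratios of 3′ to 5′ signal lay between 1.03 and 1.19 for actin and between 0.828 and 0.888 for Gapdh.

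**Figure D5:**
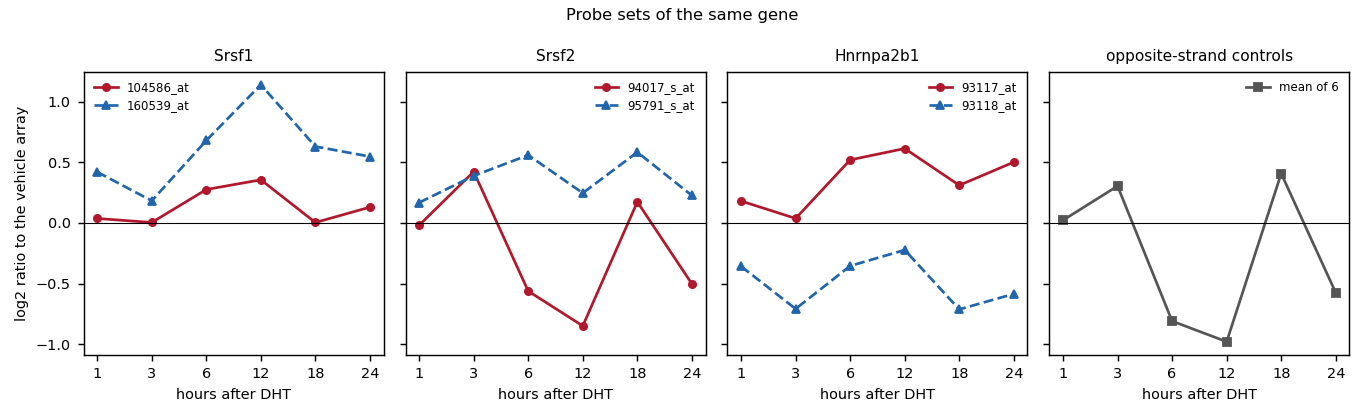
Log2 ratio to the vehicle array (y axis) by hours after DHT (x axis) for both probe sets of Srsf1, Srsf2 and Hnrnpa2b1, and for the mean of 6 opposite-strand controls. The probe sets of Srsf1 run in parallel, those of Hnrnpa2b1 lie on opposite sides of 0, and 94017_s_at of Srsf2 follows the controls.

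Genes of splicing outside the 7 name groups gave a reference for the pathway. A list of 121 such genes had 90 genes and 120 probe sets on the array, 103 of them above the floor. Its median log2 ratio over the 120 was 0.05 at 6 h, 0.02 at 12 h and 0.00 at the other times. 6 of its genes were at least 1.5-fold higher at 2 neighbouring times, Bud31 (by a probe set under the floor on the vehicle array), Esrp1, Lsm7, Nono, Rbfox2 and Snrnp27, and 4 were lower, Clk1, Luc7l, Cirbp and Srpk2. By probe set these were 6 of 120 (5.0%) and 4 of 120 (3.33%), near the 4.26% and 3.64% of the whole array. Clk1 and Srpk2 code for kinases of SR proteins, and the signal of Clk1 was 5456.2 on the vehicle array and 5511.1, 4419.8, 3455.8, 2977.5, 2935.4 and 4061.6 at 1, 3, 6, 12, 18 and 24 h after DHT. The other such kinases on the list were not called at 2 neighbouring times. Clk2 was above vehicle at 6 and 12 h, by 0.22 and 0.25 in log2 ratio, and under it at the other times. Clk3 lay between -0.23 and 0.09 and Srpk1 between -0.29 and -0.05. Clk4 was under vehicle at all 6 times by both probe sets, and Srpk3 was above the floor at 12 h only. In limma 6 of the 103 (5.83%) were higher and 6 (5.83%) lower at an unadjusted p under 0.05 for late against vehicle, when 5.53% and 6.19% of all tested probe sets were. For early against vehicle 5 (4.85%) were higher and 1 (0.971%) lower, against 2.49% and 3.84% of all, and for late against early 6 (5.83%) and 9 (8.74%), against 5.76% and 4.49%. None passed after adjustment.

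Markers of cell types and of division also differed from vehicle. A list of 20 proliferation genes, 19 on the array, had median log2 ratios of 0.00, 0.00, 0.00, 0.40, 0.49 and 0.03 from 1 to 24 h, and 9 of its genes were at least 1.5-fold higher at 2 neighbouring times. 1 gene of the list, Mki67, was lower at 2 neighbouring times by 1 probe set. By another probe set Mki67 was also among the 9 that were higher. Of all probe sets of the array, 4.26% were higher and 3.64% lower in this way. The summed signal of the list over 27 probe sets ranged from 11182 to 19317 on the 6 DHT arrays, against 11233 on the vehicle array. Smooth muscle markers, 7 of 7 above the floor, had medians of -0.18, -0.20, -0.12, 0.17, 0.36 and 0.68 from 1 to 24 h. Their summed signal ranged from 27016 to 49564 after DHT, against 29716 on the vehicle array, and 2 of the 7 genes were higher and 1 lower at 2 neighbouring times. Stroma markers, 17 of 19 probe sets above the floor with Vim at it, had medians from 0.00 to 0.25. 6 of the 10 stroma genes, Col1a1, Col1a2, Col3a1, Hoxa10, Hoxa11 and Pdgfra, were at least 1.5-fold higher at 2 neighbouring times by at least 1 probe set, and Esr1 was lower. The summed stroma signal ranged from 54873 to 79718 on the 6 DHT arrays, against 52929 on the vehicle array, so it was above vehicle at every time. Epithelium markers, 11 of 12 above the floor, had medians from -0.05 to 0.19 and a summed signal of 12008 to 14537 after DHT, against 13104 on the vehicle array, with 0 genes higher or lower at 2 neighbouring times. Of the leukocyte markers 6 of 14 probe sets were above the floor, with vehicle signals of 2459.6 for Cd14 and 1213.1 for Lyz2, while Cd3e, Itgam and Ptprc were at the floor on every array. Their medians were 0 at every time, and the summed signal ranged from 4949.6 to 6006.9 after DHT, against 5581.6 on the vehicle array. The part of these changes in the values of the splicing genes was not tested.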

How the data were processed

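The deposited values are signal intensities on a linear scale, 1 value per probe set and array, computed by the authors with MAS5, as the submitters' processing notes say without a version. All arrays had the same trimmed mean, so they had been scaled, and no further scaling was applied. Probe sets were named through GEO's platform annotation, and all 71 member symbols were found unchanged in the gene table of GRCm38.p6. The 66 control probe sets of the maker were left out of counts and tests. Signals under the 40th percentile, 145.9, were raised to it, log2 was taken, and 8421 of 12422 probe sets with a mean above it were tested with limma 3.58.1 in R 4.3.3 (variance trend, 4 residual and 1.69 prior degrees of freedom, two-sided, Benjamini-Hochberg), a script also tested on simulated data. The number of arrays limits the precision of every value, and the labels do not say how many mice went into a pool. The group of genes, the lists and the tests were chosen with earlier results of these data known. Genes are named where a probe set was at least 1.5-fold from vehicle at 2 neighbouring times, was among the 6 lowest p in a direction for late against early, among the 4 highest or lowest differences of a phase from vehicle, or highest or lowest of its name group. Other members and other kinases of SR proteins were added after their values were seen. Alternatives changed the floor, the scaling, the filter, the variance trend, the fold threshold, the probe sets counted and the arrays kept.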

Additional observations from a re-analysis of the deposited data

How the results depend on the processing

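No difference changed direction under any alternative run, and all 314 values of the 28 named differences kept their side of the adjusted threshold, with a lowest adjusted p of 0.158. The medians over the 71 probe sets (main 0.01, 0.03, 0.16, 0.18, 0.13 and 0.08 from 1 to 24 h) stand below where they changed by over 1.5 times. With the floor at the 60th percentile they were 0, 0, 0.047, 0.011, 0.038 and 0, and with the 20th, 0.052 at 1 h and 0.066 at 3 h. Quantile normalization gave 0.025 and 0.022 at 1 and 3 h. With 1 probe set a gene they were 0.027 at 1 h and 0.12 at 24 h, and with only probe sets above the floor 0.044 and 0.12. With plain _at probe sets they were 0.044, 0.067, 0.27, 0.30 and 0.13 at 1, 3, 6, 12 and 24 h. For unadjusted p under 0.05, a floor at the 60th percentile gave 2 higher for early against vehicle, 7 higher for late against vehicle and 2 lower for late against early. Keeping plain _at probe sets of at least 2 floors, which like the restriction to those above the floor was chosen after seeing the data, gave 3, 7 and 2 higher for early against vehicle, late against vehicle and late against early. Leaving out 1 array in turn gave 2 to 6 higher and 0 to 1 lower for early against vehicle, 5 to 11 higher and 0 to 2 lower for late against vehicle, and 3 to 12 higher and 1 to 2 lower for late against early. For 1.5-fold counts, the 20th percentile floor gave, at 1 h, 6 higher and 3 lower, and 2, 1 and 2 lower at 3, 6 and 24 h; the 60th gave, at 3 h, 1 higher and 0 lower, at 18 h, 3 higher and 1 lower, and at 24 h 0 lower. Quantile normalization gave 1 lower at 6 h. At 2-fold the higher counts from 1 to 24 h were 0, 1, 2, 2, 2 and 0, and the lower ones 0 at 1, 3, 18 and 24 h and 1 at 12 h. With 1 probe set a gene, 0 were lower at 1, 3 and 24 h. Plain _at probe sets gave 0 higher and 0 lower at 1 h, 0 lower at 12 h, 3 higher at 18 h and 1 higher at 24 h. With 1 probe set a gene 52 member probe sets were kept, and with plain _at probe sets of at least 2 floors 44. Except at 2-fold, the shares over all probe sets under these alternatives are not given here. The counts therefore show only how far the number of members called moved. The cause of these moves was not tested, beyond the fewer probe sets or arrays some alternatives keep. No paired analysis was possible because each group has 1 array and the labels give no replicate numbers. Leaving out the vehicle array leaves late against early as the only comparison. Signals close to the floor, such as those of Hnrnph2, Hnrnpc, Srsf4 by 102093_f_at and Prpf4b, limit the size that can be measured.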

Other observations

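Probe sets that named a splicing gene together with a pseudogene or a related gene were kept out of the group. 101523_at, which names Hnrnpa3 and Gm6793, gave signals of 4523.3 on the vehicle array and 5042.0, 4400.6, 5394.5, 7200.0, 6503.4 and 5938.1 at 1, 3, 6, 12, 18 and 24 h after DHT. The dimmer 101524_at of the same pair gave 236.7 on the vehicle array and 256.5, 248.3, 327.1, 351.4, 267.8 and 272.5 at those times. Both were highest at 12 h. 95049_at, which names Snrpd2 of the Sm ring and Gm5848, gave 2732.7 on the vehicle array and 2557.4, 2722.8, 3545.2, 3973.3, 3743.1 and 3169.8 at the 6 times, also highest at 12 h. 100577_at, which names Snrpd1 and Gm14277, was under the floor on the vehicle array and highest at 12 h, at 220.3. 100101_at, which names Snrpa of the U1 snRNP and related genes, had log2 ratios to vehicle between -0.12 and 0.22. 97272_at, which names Hnrnpa1 and related genes, had a log2 ratio of 0.80 at 24 h and -0.51 at 3 h, while 92724_at of Hnrnpa1 alone was under vehicle at both.

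The pseudogene Snrp1c-ps2, taken in by its name, had the widest swing of all 71 probe sets. Its probe set 101292_f_at gave 485.6 on the vehicle array and 821.4, 344.2, 539.5, 304.9, 1850.6 and 335.4 at 1, 3, 6, 12, 18 and 24 h after DHT. The name of the probe set marks probes shared within a family, and no neighbouring times agreed in direction.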
